A study of Homo sapiens with 36 samples.

Results

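The genes described here are 36 genes of cholesterol and fatty acid synthesis, measured by RNA sequencing in 3 established human mantle cell lymphoma lines. The members were chosen by gene symbol and matched to the Ensembl identifiers of the count tables through GENCODE v44; all 36 were found among 58302 gene identifiers. Mantle cell lymphoma is a cancer of mature B cells, and the lines JEKO, MINO and UPN-1 are each 1 cell line, from 1 tumour. GS716054 inhibits KDM5, the histone demethylases that take methyl groups off lysine 4 of histone H3. Each line was treated with it, or with DMSO as the vehicle control, for 24 h or for 72 h, which makes 12 groups of 3 biological replicates (36 libraries). All groups were grown in RPMI-1640 with 20% foetal bovine serum, a source of lipoprotein cholesterol, and no other agent is named in the labels. The questions were whether GS716054 shifted these genes in each line at each time, and how they moved in DMSO between 24 h and 72 h.

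Cholesterol is built from acetyl-CoA through the mevalonate pathway and a series of sterol intermediates, and fatty acids are built from the same precursor by carboxylation, elongation and desaturation. The transcription factors SREBP-1 and SREBP-2, encoded by SREBF1 and SREBF2, drive both routes; SCAP carries them out of the endoplasmic reticulum when sterols are low, and INSIG1 holds SCAP back when sterols are high. Liver X receptors respond to oxidised sterols, and ABCA1, ABCG1, MYLIP and SREBF1 are among their known targets. The members were grouped as the mevalonate segment (ACAT2, HMGCS1, MVK, PMVK, MVD, IDI1, FDPS), the sterol segment (FDFT1, SQLE, LSS, CYP51A1, TM7SF2, MSMO1, NSDHL, HSD17B7, EBP, SC5D, DHCR7), SREBP control (SREBF1, SREBF2, SCAP, INSIG1), transport and efflux (STARD4, NPC1, NPC2, ABCA1, ABCG1, MYLIP), fatty acid synthesis (ACLY, ACACA, FASN, ELOVL6) and desaturases (SCD, SCD5, FADS1, FADS2).

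Upstream sequences are shown for both stearoyl-CoA desaturases, the members that passed the test in opposite directions in MINO and UPN-1 at 72 h, and for SREBF2, the only member with a match to a sterol regulatory element among the windows searched. They run 5′ to 3′ on the gene's strand, from RefSeq on GRCh38.p14, with motif matches in capitals; ATTGG is CCAAT read on the other strand.
SCD: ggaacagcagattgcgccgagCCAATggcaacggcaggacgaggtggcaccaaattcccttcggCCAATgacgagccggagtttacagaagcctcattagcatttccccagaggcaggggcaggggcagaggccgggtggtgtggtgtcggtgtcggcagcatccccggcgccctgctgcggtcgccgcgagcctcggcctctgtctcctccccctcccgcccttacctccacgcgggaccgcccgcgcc
SCD5: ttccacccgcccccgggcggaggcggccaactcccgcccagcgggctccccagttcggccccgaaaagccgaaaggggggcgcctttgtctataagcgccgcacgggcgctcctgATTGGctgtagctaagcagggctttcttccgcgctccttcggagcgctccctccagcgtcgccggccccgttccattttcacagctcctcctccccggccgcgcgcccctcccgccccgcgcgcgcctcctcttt
SREBF2: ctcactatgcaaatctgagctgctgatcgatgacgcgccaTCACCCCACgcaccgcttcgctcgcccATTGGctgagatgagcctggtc
The SCD stretch is the 250 bases before the start site (chr10:100346983-100347232, plus strand) and held CCAAT 229 and 186 bases before it. The SCD5 stretch is likewise the 250 bases before its start site (chr4:82798797-82799046, minus strand), with CCAAT on the opposite strand 135 bases before it. The SREBF2 stretch covers 89 bases (chr22:41832932-41833020, plus strand), in which TCACNCCAC began 133 bases before the start site and CCAAT on the opposite strand 106 bases before it. RefSeq windows of 300 bases were found for 31 members, 41 windows in all, and both strands were searched for TCACNCCAC and CCAAT, which do not overlap each other here. TCACNCCAC was found in 1 of the 41 windows (2.44%) and in 1.13% of all 35116 windows, and CCAAT in 27 of the 41 (65.9%) and in 34.6% of all. CCAAT is the site read by NF-Y, a factor known to work beside SREBPs; a match of letters is a description of the window only. SCD (ENSG00000099194) lies at chr10:100347233-100364826 and SCD5 (ENSG00000145284) at chr4:82629539-82798796 in GENCODE v44 on GRCh38. ELOVL6 (ENSG00000170522) lies at chr4:110045846-110199199 and DHCR7 (ENSG00000172893) at chr11:71428193-71452868, both on the minus strand.

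Libraries held 8784815 to 14970876 reads in genes (median 11926903). Levels are in CPM, the read count scaled to library size with edgeR's TMM factors. A count of 0 allows a level of up to 0.2004 to 0.3415 CPM, limits taken without TMM factors. Such limits cover counting error only. Mitochondrially encoded genes took 1.524% to 7.033% of gene reads. All 8 B-lineage markers reached 1 CPM in each line and treatment. The T cell gene CD2 and the myeloid gene FCGR3A had 0 counts in all libraries of each line. The summed myeloid markers reached at most 8.57 CPM and the fibroblast markers 4 CPM. Other T cell markers were present, and TRAC reached 1 CPM in each line and treatment. With DMSO the T cell sum ran from 46.1 to 126 CPM in JEKO and from 47.9 to 60.4 CPM in UPN-1. With GS716054 it ran from 37.6 to 91.2 CPM in JEKO and from 35 to 69.6 CPM in UPN-1. In MINO the summed B-lineage markers ran from 6617 to 8275 CPM with GS716054 and from 4632 to 6365 CPM with DMSO, the T cell markers, of which CD2 and CD3D were at 0, from 126 to 176 against 70 to 105 CPM, and the myeloid markers from 1.77 to 8.57 against 0.538 to 3.06 CPM. In JEKO the B-lineage sum was 2669 to 3676 CPM with GS716054 and 3719 to 4554 CPM with DMSO. The part of these shifts in the results below was not tested. In these bulk libraries, fewer cells of a type and less RNA per cell cannot be told apart. The MINO replicate 2 libraries at 72 h stood apart from replicates 1 and 3 in both treatments for several members.

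In DMSO at 24 h the lines carried the same main enzymes at the top. Levels compared between genes are in CPM per kilobase of exon (CPM per kb). PMVK, which phosphorylates mevalonate phosphate, stood first in JEKO and MINO at 108 and 97.6 CPM per kb. SCD, the desaturase that makes oleate from stearate, stood first in UPN-1 at 76.1 CPM per kb and second in the other lines at 87.3 (JEKO) and 73.4 (MINO). ACLY, which makes cytosolic acetyl-CoA from citrate, reached 71.3 CPM per kb in UPN-1, 64.9 in MINO and 56.9 in JEKO. At the other end, CYP51A1, the lanosterol demethylase, had 0.398 to 0.696 CPM per kb in the lines. Of its exonic length 68.2% overlaps other GENCODE genes on the same strand that are not in the count tables, so its count is uncertain. SC5D, a late sterol desaturase, was low as well, at 1.11 to 1.71 CPM per kb.

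The lines differed in desaturases, in squalene epoxidase and in the efflux pump ABCA1. SCD5, a further stearoyl-CoA desaturase, had 33.4, 30.7 and 35.2 CPM in the JEKO replicates 1, 2 and 3, 3.57, 3.32 and 4.4 CPM in UPN-1 and 0 counts in all 3 MINO libraries. Of the 12 MINO libraries in the series 9 had 0 SCD5 counts and the other 3 held 6 counts in all. The mean SCD5 levels in JEKO and UPN-1 were 102-fold and 11.6-fold above a floor of 3 counts per library in MINO. Unlike the levels, that floor was taken without TMM factors, so these ratios are approximate and are not lower bounds. SQLE, the squalene epoxidase, had 40.8, 43.4 and 38.1 CPM in MINO, below every JEKO library (162, 124 and 154 CPM) and every UPN-1 library (172, 151 and 177 CPM). ABCA1, which exports cholesterol to apolipoprotein A-I, had 2, 2.91 and 2.29 CPM in MINO, 30, 38.6 and 22.8 CPM in JEKO and 24.8, 21.2 and 24 CPM in UPN-1. FADS1, the delta-5 desaturase, was 190 ± 13.7 CPM in JEKO, against 45.2 ± 9.96 (MINO) and 43.8 ± 6.24 (UPN-1; SD, n = 3). JEKO thus stood above the other lines, and MINO and UPN-1 did not differ beyond their spread in FADS1. NSDHL, a sterol C4 dehydrogenase on the X chromosome, went the other way, with 87.2 to 94.5 CPM in UPN-1, 31.2 to 40.3 in MINO and 20.8 to 23.2 in JEKO.

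Across the 36 libraries, edgeR's quasi-likelihood test at a Benjamini-Hochberg adjusted p under 0.05 (a gene past it is called) called 18 of 36 members between MINO and JEKO, 1 higher and 17 lower in MINO, where 48% of all genes were called, 22% higher and 25.9% lower. Between UPN-1 and JEKO it called 17 (2 higher, 15 lower in UPN-1) against 44.9% of all genes (21.2% higher, 23.8% lower), and between UPN-1 and MINO 19 (11 higher, 8 lower) against 44.4% (23.3% higher, 21.1% lower). The totals are near those of all genes; by direction, more members than all genes were lower than in JEKO, and fewer were higher, in both other lines. The median log2 difference of the members was -0.43 for MINO against JEKO (all genes -0.07), -0.34 for UPN-1 against JEKO (all genes -0.04) and 0.04 for UPN-1 against MINO (all genes 0.03). For SQLE the log2 difference of UPN-1 against MINO was 2.03 (SE 0.209, edgeR adjusted p 1.6e-09). For SREBF2 that of MINO against JEKO was -1.47 (SE 0.172, edgeR adjusted p 1.85e-08), with 451 ± 34 CPM in JEKO and 163 ± 5.18 CPM in MINO (SD, n = 3). SREBF1 was instead lowest in UPN-1, with a log2 difference of -1.71 from MINO (SE 0.239, edgeR adjusted p 5.82e-07). Each line is 1 cell line, so these differences concern these lines.

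**Figure D1:**
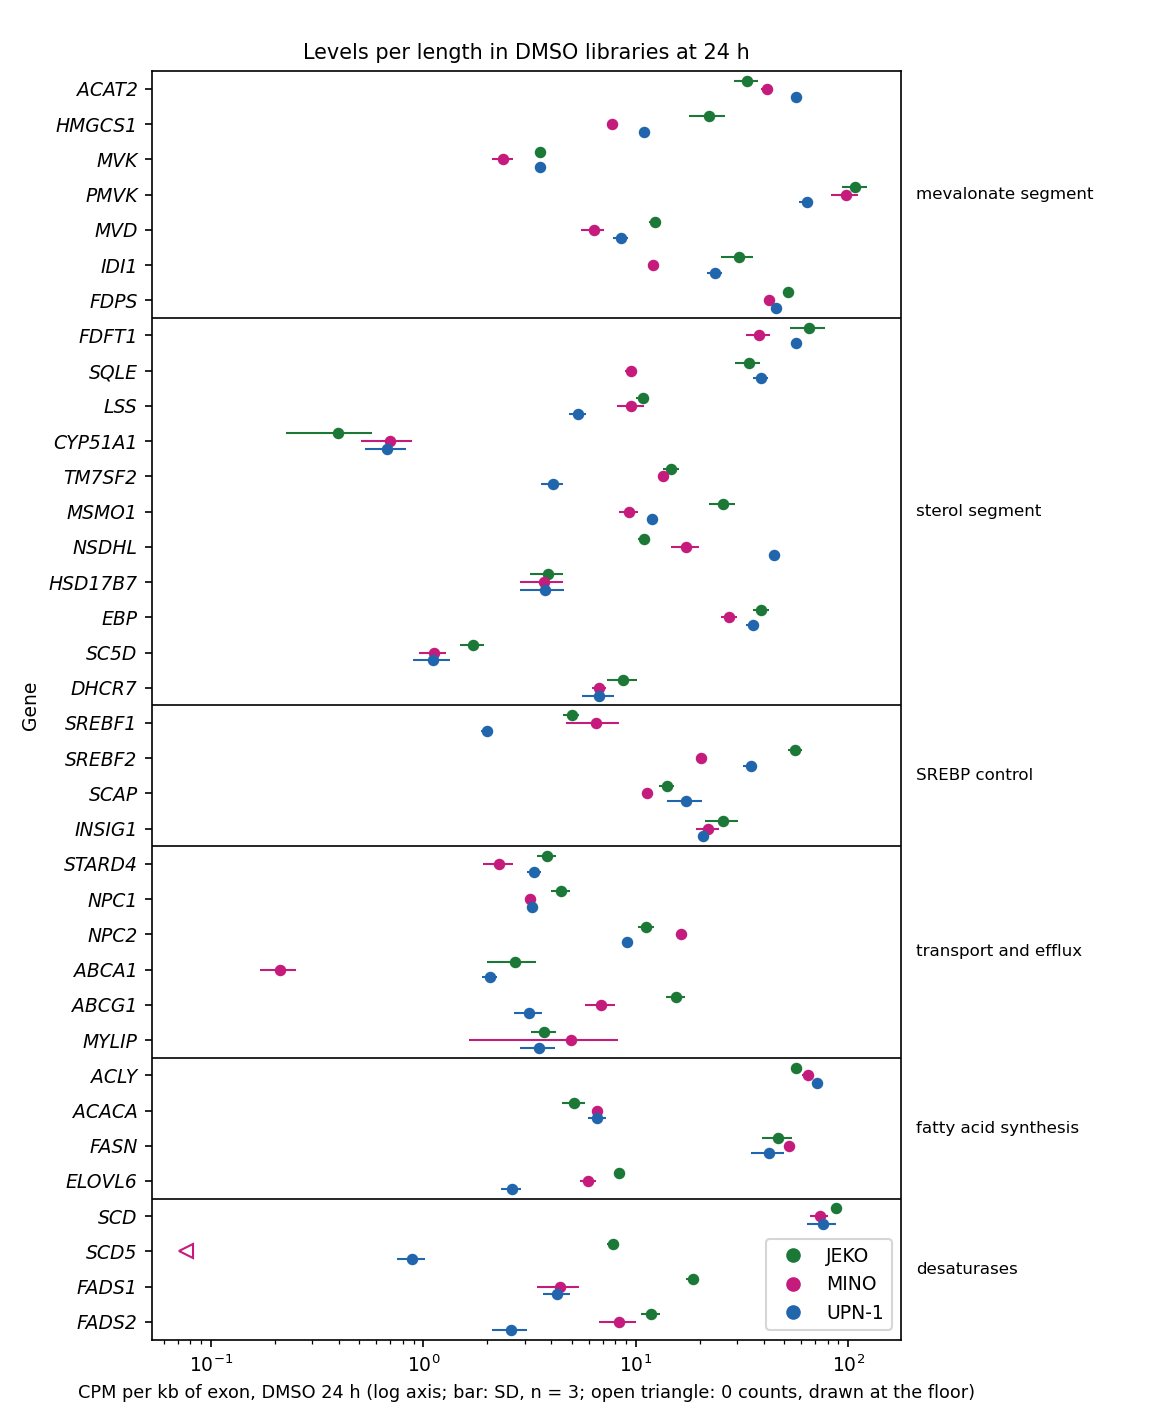
Levels of the 36 genes in DMSO libraries at 24 h, as CPM per kilobase of exon on a log axis, by line. Points are means and bars the SD (n = 3). The open triangle marks SCD5 in MINO, with 0 counts, at the floor of 3 counts in the shallowest of its 3 libraries. That floor was taken without TMM factors. SCD5 and ABCA1 show the widest gaps between lines, and CYP51A1 lies lowest of the other genes in JEKO and UPN-1.

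ELOVL6 and DHCR7 fell with GS716054 in MINO at 24 h. Among 35 members tested in MINO (SCD5 had too few counts), 2 were called, both lower, where 2.39% of all 15028 genes were called, 0.952% lower. The median log2 fold change of the members was -0.05, that of all genes 0.01, and that of the 4 fatty acid synthesis genes -0.80. DESeq2 called 3 members, FASN beside these, and 6.23% of all genes. ELOVL6, which elongates palmitate to stearate, had 40, 43 and 47.6 CPM in the DMSO replicates 1, 2 and 3 and 21.9, 20.4 and 27.3 CPM with GS716054. All treated libraries were below all DMSO libraries, and the level fell 1.91-fold (log2 fold change -0.94, SE 0.188, edgeR adjusted p 0.0255). DHCR7, the enzyme of the last step to cholesterol from 7-dehydrocholesterol, had 47.8, 48.7 and 42.4 CPM with DMSO and 32.5, 28.3 and 24 CPM with GS716054. Again the groups did not overlap (1.67-fold lower, log2 fold change -0.74, SE 0.178, edgeR adjusted p 0.0486). Both calls were lost when any 1 of the 6 libraries was left out, with adjusted p from 0.0515 to 0.156 for ELOVL6 and from 0.0864 to 0.215 for DHCR7.

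Same-numbered DMSO and GS716054 libraries of MINO deviated together from their group means at both times, weakly at 24 h. The correlations over genes were 0.13 to 0.27 at 24 h and 0.29 to 0.55 at 72 h. The fit with the replicate number as a block within each time is therefore given beside these results. That fit was added after the data had been seen. With the block, 8 of 35 members were called at 24 h, 6 lower and 2 higher, where 15.8% of all genes were called, 7.36% lower and 8.43% higher. The lower members were ELOVL6, DHCR7, FASN, ACACA, SCD and PMVK. FASN, which builds palmitate, had 509, 470 and 486 CPM with DMSO and 301, 288 and 258 CPM with GS716054 (log2 fold change -0.82, edgeR adjusted p 0.000332 with the block and 0.0877 without). ACACA, which makes malonyl-CoA for FASN, had 84.4, 91.4 and 81.7 CPM against 54.5, 50 and 49.1 CPM (-0.78, edgeR adjusted p 0.000492 with the block, 0.145 without). Neither gene overlapped between the groups. SCD had 402, 411 and 343 CPM against 274, 280 and 214 CPM, again without overlap (-0.62, edgeR adjusted p 0.00817 with the block, 0.136 without). For PMVK the groups overlapped (106, 81.4 and 106 against 88, 62 and 82.2 CPM), and the blocked log2 fold change was -0.37 (edgeR adjusted p 0.035, 0.288 without the block). On the side of sterol export and trafficking, ABCG1, an efflux pump, was higher with the block (0.49, edgeR adjusted p 0.00783, 0.561 without). NPC2, which binds cholesterol in the lysosome, was higher likewise (0.49, edgeR adjusted p 0.0339, 0.507 without). The other members, among them all of SREBP control, passed neither fit in MINO at 24 h, and ACLY, upstream of ACACA, had a log2 fold change of -0.20.

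At 72 h in MINO the treated cells had less SCD. Of 35 members 1 was called, where 5.56% of all genes were called, 2.05% lower; 30 of the 35 log2 fold changes were below 0, with a median of -0.21 (all genes -0.03), and of -0.34 without GS716054 replicate 1. DESeq2 called 3 members, ACACA, FADS1 and SCD, and 10.4% of all genes. SCD had 364, 661 and 387 CPM in the DMSO replicates 1, 2 and 3 and 261, 278 and 238 CPM with GS716054. Every treated library was below every DMSO library, with DMSO replicate 2 far above the others (1.83-fold lower, log2 fold change -0.87, SE 0.206, edgeR adjusted p 0.0277). SCD was called in 4 of 6 refits that left out 1 library, with adjusted p from 0.0245 to 0.0779, and a fit of only the 6 libraries compared ended the call (adjusted p 0.168). The number of members called went from 0 (without GS716054 replicate 3) to 5 (without DMSO replicate 2), and without GS716054 replicate 1 it was 2. Leaving out replicate 2 of both groups, a setting chosen after the data had been seen, edgeR called 5 members, all lower, and 14.4% of all genes. These were ACACA (log2 fold change -0.76, adjusted p 0.000846), FASN (-0.66, 0.00134), ELOVL6 (-0.69, 0.00752), SCD (-0.62, 0.01) and SREBF1 (-0.80, 0.0373).

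With the replicate number as a block, 11 of 35 members were called in MINO at 72 h, all lower, where 20.2% of all genes were called, 9.8% lower. They were 3 of the 4 fatty acid synthesis genes (FASN, ACACA, ELOVL6), the 3 desaturases tested (SCD, FADS1, FADS2), DHCR7, SREBF1, SREBF2, STARD4 and MYLIP. FASN had 386, 224 and 407 CPM with DMSO and 242, 154 and 272 CPM with GS716054. The groups overlapped because replicate 2 was low in both, while each treated library was below the DMSO library of its number (log2 fold change -0.61, edgeR adjusted p 0.00174 with the block, 0.137 without). ACACA behaved alike, with 68.4, 40.4 and 76.7 CPM against 45.2, 21.7 and 42.6 CPM (-0.79, edgeR adjusted p 0.000348 with the block, 0.104 without). For ELOVL6 replicate 2 was the same in both groups, 24.5 and 24.3 CPM, and replicates 1 and 3 went from 39.8 and 39.3 to 23.7 and 26.2 CPM (-0.47, edgeR adjusted p 0.035 with the block, 0.135 without). FADS1 had 58.6, 71.5 and 61.6 CPM with DMSO and 51, 33.6 and 37.4 CPM with GS716054, without overlap (-0.68, edgeR adjusted p 0.00557 with the block, 0.069 without). FADS2, the delta-6 desaturase that lies beside FADS1 on chromosome 11, gave -0.49 (edgeR adjusted p 0.0123 with the block, 0.309 without).

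Among the regulators, SREBF1 had 82.7, 51.7 and 94.4 CPM with DMSO and 63, 47.2 and 40.9 CPM with GS716054 in MINO at 72 h, and the groups overlapped (blocked log2 fold change -0.59, edgeR adjusted p 0.0237, 0.175 without the block). SREBF2 had 208, 275 and 214 against 177, 194 and 180 CPM, without overlap (-0.34, edgeR adjusted p 0.0409 with the block, 0.155 without). STARD4, a carrier of sterol between membranes, had 18.3, 18.5 and 15.4 against 14.6, 12.4 and 8.72 CPM (-0.58, edgeR adjusted p 0.0224 with the block, 0.138 without). DHCR7 stayed on the low side, at 37.9, 30.6 and 38.8 against 29.9, 20.6 and 30 CPM (-0.44, edgeR adjusted p 0.0186 with the block, 0.173 without). MYLIP, a ubiquitin ligase that degrades lipoprotein receptors, showed how far replicate 2 stood apart. Its DMSO libraries had 26, 250 and 21.8 CPM and its treated ones 15.9, 97 and 12.7 CPM (-1.01, edgeR adjusted p 0.00111 with the block, 0.459 without). Without both replicate 2 libraries its log2 fold change was -0.78 (edgeR adjusted p 0.254). Under the same setting, without the block, FADS1 gave -0.48, FADS2 -0.34, SREBF2 -0.28, STARD4 -0.57 and DHCR7 -0.39, and none of these passed the test (edgeR adjusted p from 0.0873 to 0.225). Of the enzymes that pass acetyl-CoA to farnesyl diphosphate, the 7 mevalonate genes, none was called in either fit, with a median of -0.12 and 0 at an unadjusted p under 0.05 in the unblocked fit; DESeq2 called none of them either.

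**Figure D2:**
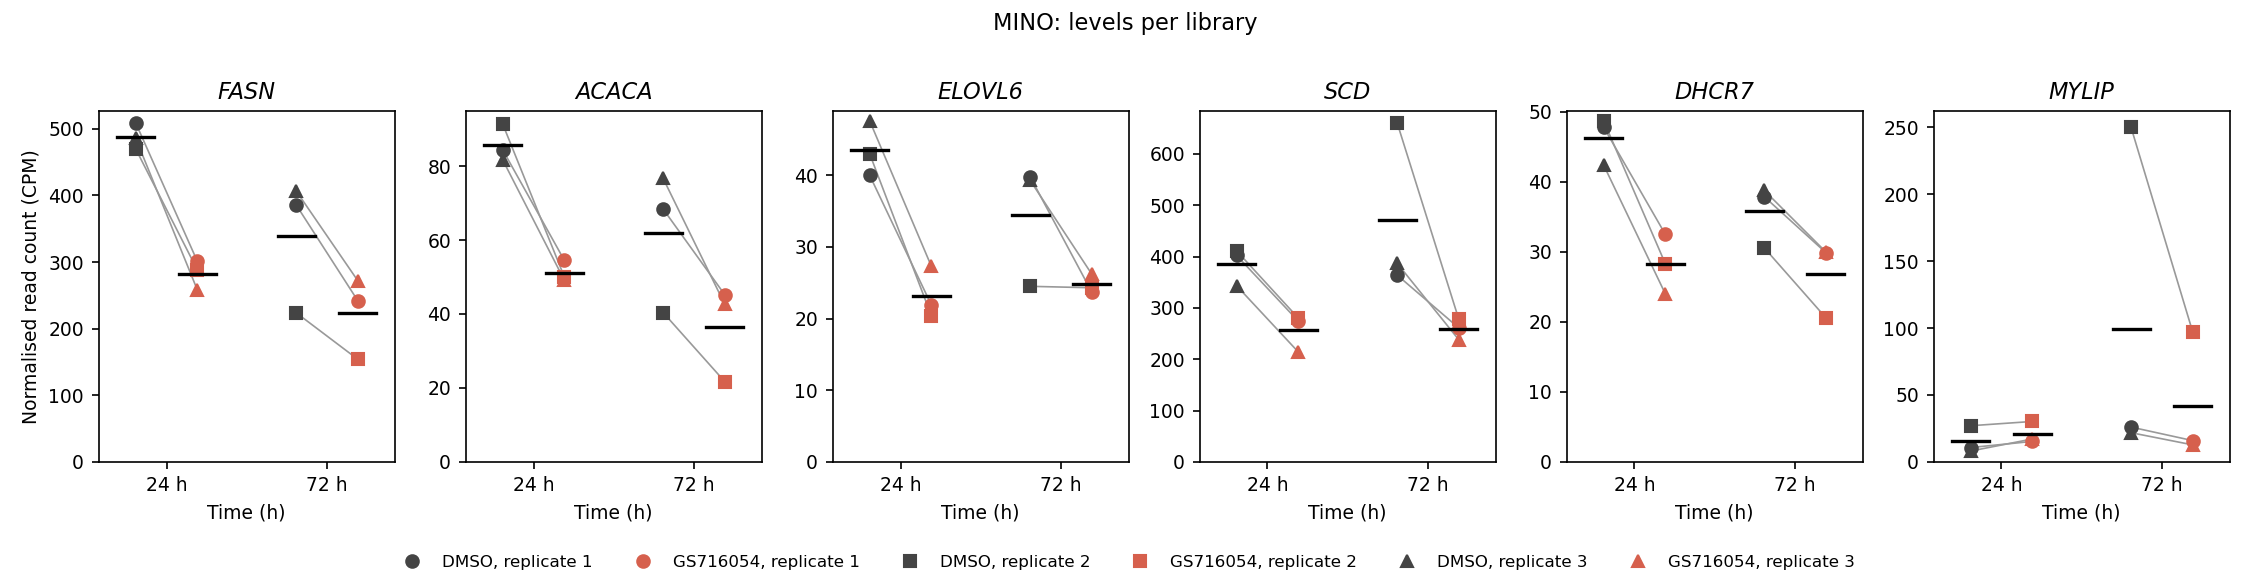
Normalised read counts (CPM) of FASN, ACACA, ELOVL6, SCD, DHCR7 and MYLIP in the MINO libraries at 24 h and 72 h; grey lines join the DMSO and GS716054 libraries of 1 replicate number, and horizontal bars are group means (n = 3). At 24 h the treated libraries of the first 5 genes lie below all DMSO libraries, and at 72 h replicate 2 (squares) stands apart, most of all for MYLIP at 250 and 97 CPM.

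SCD5 rose with GS716054 in UPN-1 at 72 h. There 1 of 36 members was called, where 0.334% of all 15248 genes were called, 0.275% higher; the members' median log2 fold change was -0.03, and that of all genes 0.00; the median of the 4 desaturases was 0.52. DESeq2 called SCD5 as well, and 1.04% of all genes. SCD5 had 6.89, 6.09 and 6.64 CPM with DMSO and 11.8, 16.1 and 13 CPM with GS716054. The lowest treated library was well above the highest DMSO library (2.11-fold higher, log2 fold change 1.07, SE 0.181, edgeR adjusted p 0.0199). This call was kept in 4 of 6 refits that left out 1 library and lost without DMSO replicate 1 or GS716054 replicate 2, with adjusted p from 0.0286 to 0.0984, and a fit of only the 6 libraries compared ended it (adjusted p 0.196). At 24 h no member was called by edgeR, 3 had an unadjusted p under 0.05, and DESeq2 called 1, FADS2. Of all 15248 genes edgeR called 0.0262% and DESeq2 0.125%, and 577 had an unadjusted p under 0.05 in edgeR. All 4 desaturases were above 0 at 24 h, with a median of 0.77. The largest differences without overlap were again desaturases. FADS2 had 23.4, 25.3 and 33 CPM with DMSO and 48, 50.2 and 61 CPM with GS716054 (log2 fold change 0.95, SE 0.223, edgeR adjusted p 0.411). SCD5 had 3.57, 3.32 and 4.4 against 7.76, 6.99 and 7.01 CPM (0.92, SE 0.197, edgeR adjusted p 0.327). FADS1 had 37.3, 44.3 and 49.7 against 64.4, 60.2 and 77.6 CPM (0.61, SE 0.176, edgeR adjusted p 0.691).

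Same-numbered UPN-1 libraries also deviated together at each time, weakly at 24 h. There the correlations over genes were 0.11 to 0.24, against a set minimum of 0.1 and 0.06 to 0.21 in JEKO at 24 h. The labels number the replicates and state no pairing. With the block within each time, 5 of 36 members were called at 24 h, all higher, where 1.5% of all genes were called (0.918% higher): all 4 desaturases and FASN. For FADS2 the edgeR adjusted p was 0.00012, for FADS1 0.00356 and for SCD5 0.0174. SCD was 0.24 higher on the log2 scale (edgeR adjusted p 0.0442) and FASN 0.26 (0.0278), with overlapping groups for both. At 72 h with the block 6 members were called, 3 higher and 3 lower, where 7.47% of all genes were called, 4.18% higher and 3.29% lower. The higher ones were SCD5 (1.06, edgeR adjusted p 0.000267), FADS2 (0.65, 0.000373) and FADS1 (0.44, 0.0061). FADS2 had 93.6, 67.1 and 45.3 CPM with DMSO and 126, 86.1 and 99.4 CPM with GS716054; the groups overlapped, and each treated library was above the DMSO library of its number. On the sterol side DHCR7 (-0.40, edgeR adjusted p 0.0025), FDPS (-0.22, 0.0343) and INSIG1 (-0.23, 0.0372) were lower with the block. DHCR7, which had 70.7, 44 and 60.6 CPM against 56.8, 30.9 and 44.5 CPM, was thus lower with GS716054 in the blocked fits of both MINO and UPN-1 at 72 h. FDPS overlaps the antisense gene RUSC1-AS1 over 18.6% of its exonic length, and reads of the pair cannot be told apart where counting ignores strand. FADS1 and FADS2 overlap on opposite strands over 4.8% and 4.6% of their exonic lengths.

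**Figure D3:**
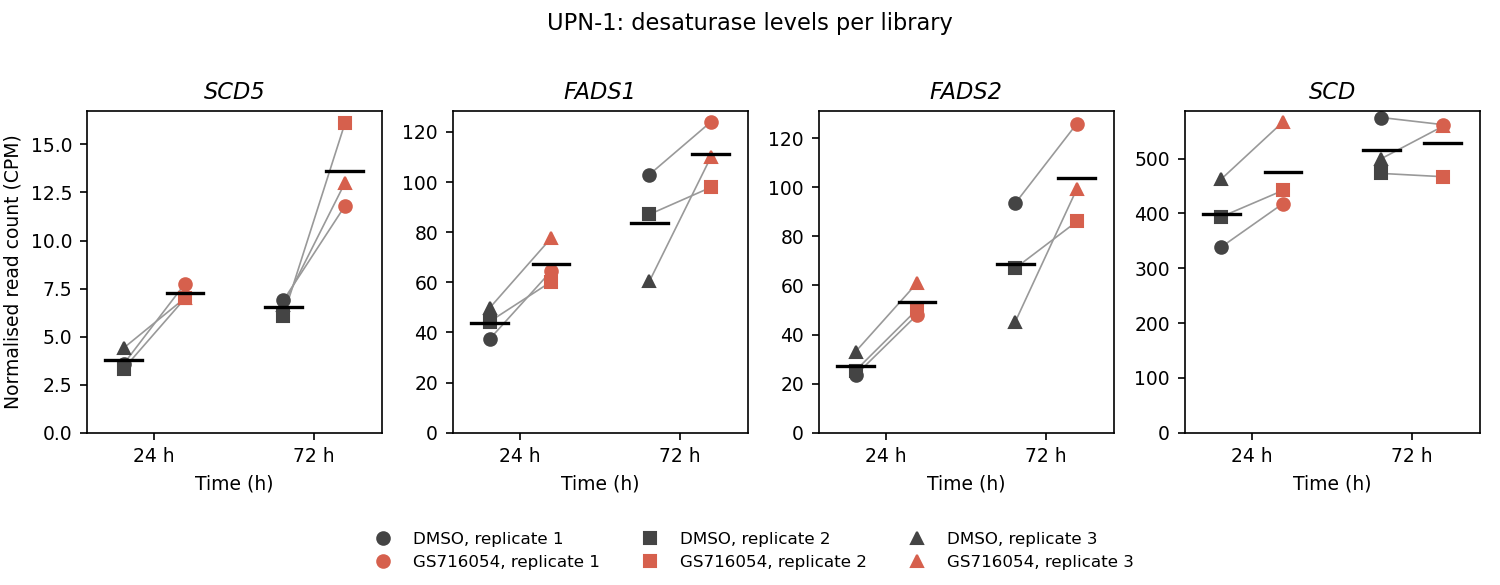
Normalised read counts (CPM) of the 4 desaturase genes in the UPN-1 libraries at 24 h and 72 h; grey lines join the DMSO and GS716054 libraries of 1 replicate number, and horizontal bars are group means (n = 3). SCD5, FADS1 and FADS2 are higher in the treated library of every joined pair at both times, with SCD5 at 11.8 to 16.1 CPM in the treated libraries at 72 h.

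In JEKO no member was called for GS716054 at either time. At 24 h edgeR called 0 of 36 members, 2 had an unadjusted p under 0.05 and DESeq2 called 0. Of all 16690 genes edgeR called 0.018% and DESeq2 0.15%, and 662 had an unadjusted p under 0.05 in edgeR. The members' median log2 fold change was 0.05, with a range from -0.43 to 0.43. SCD5, at 33.4, 30.7 and 35.2 CPM with DMSO and 45.5, 45.2 and 43.9 CPM with GS716054, gave the largest value without overlap (0.43, SE 0.155, edgeR adjusted p 1). MVK, the mevalonate kinase, gave the lowest, at 33.2, 31.5 and 31.1 against 27.7, 19.9 and 24.3 CPM (-0.43, SE 0.181, edgeR adjusted p 1). MYLIP had 12.2, 12.3 and 9.63 against 13.2, 15.1 and 12.9 CPM (0.26, SE 0.262, edgeR adjusted p 1). At 72 h edgeR again called 0 members, 3 had an unadjusted p under 0.05, DESeq2 called 0, and edgeR called 0.3% of all genes, DESeq2 1.35%. In edgeR 1438 of all 16690 genes had an unadjusted p under 0.05 there. Of the 36 members 29 were above 0, with a median of 0.18 (all genes 0.00). Its size depended on which libraries were in the fit. Leaving out GS716054 replicate 2 brought it to 0.01, and leaving out the DMSO replicates 1, 2 and 3 in turn brought it to 0.04, 0.30 and 0.09. The pair without overlap were HSD17B7, a sterol ketoreductase with near-identical pseudogene copies, at 21.8, 22.1 and 16.3 against 22.1, 27 and 22.9 CPM, nearly touching (0.26, SE 0.171, edgeR adjusted p 0.78), and ACACA at 39.5, 42.8 and 46.1 against 50.5, 54.2 and 47.6 CPM (0.25, SE 0.132, edgeR adjusted p 0.675).

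With the block within 72 h, 3 JEKO members were called, all higher, where 3.34% of all genes were called, 1.89% higher. MYLIP had 10.3, 23.6 and 13.8 CPM with DMSO and 20.8, 31.1 and 21.6 CPM with GS716054 (0.68, edgeR adjusted p 0.0268, 0.478 without the block). HMGCS1, the synthase that opens the mevalonate route, had 92, 243 and 134 against 167, 318 and 177 CPM (0.55, edgeR adjusted p 0.0282, 0.766 without). The DMSO libraries of this gene spread more widely than the difference, and each treated library was above the DMSO library of its number. ENSG00000261604, on the other strand, covers 37.7% of the exonic length of HMGCS1, and its counts are uncertain to that extent. SCD5 had 24.2, 31.3 and 32.5 against 32.5, 47 and 40.8 CPM (0.45, edgeR adjusted p 0.0454 with the block, 0.352 without).

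**Figure D4:**
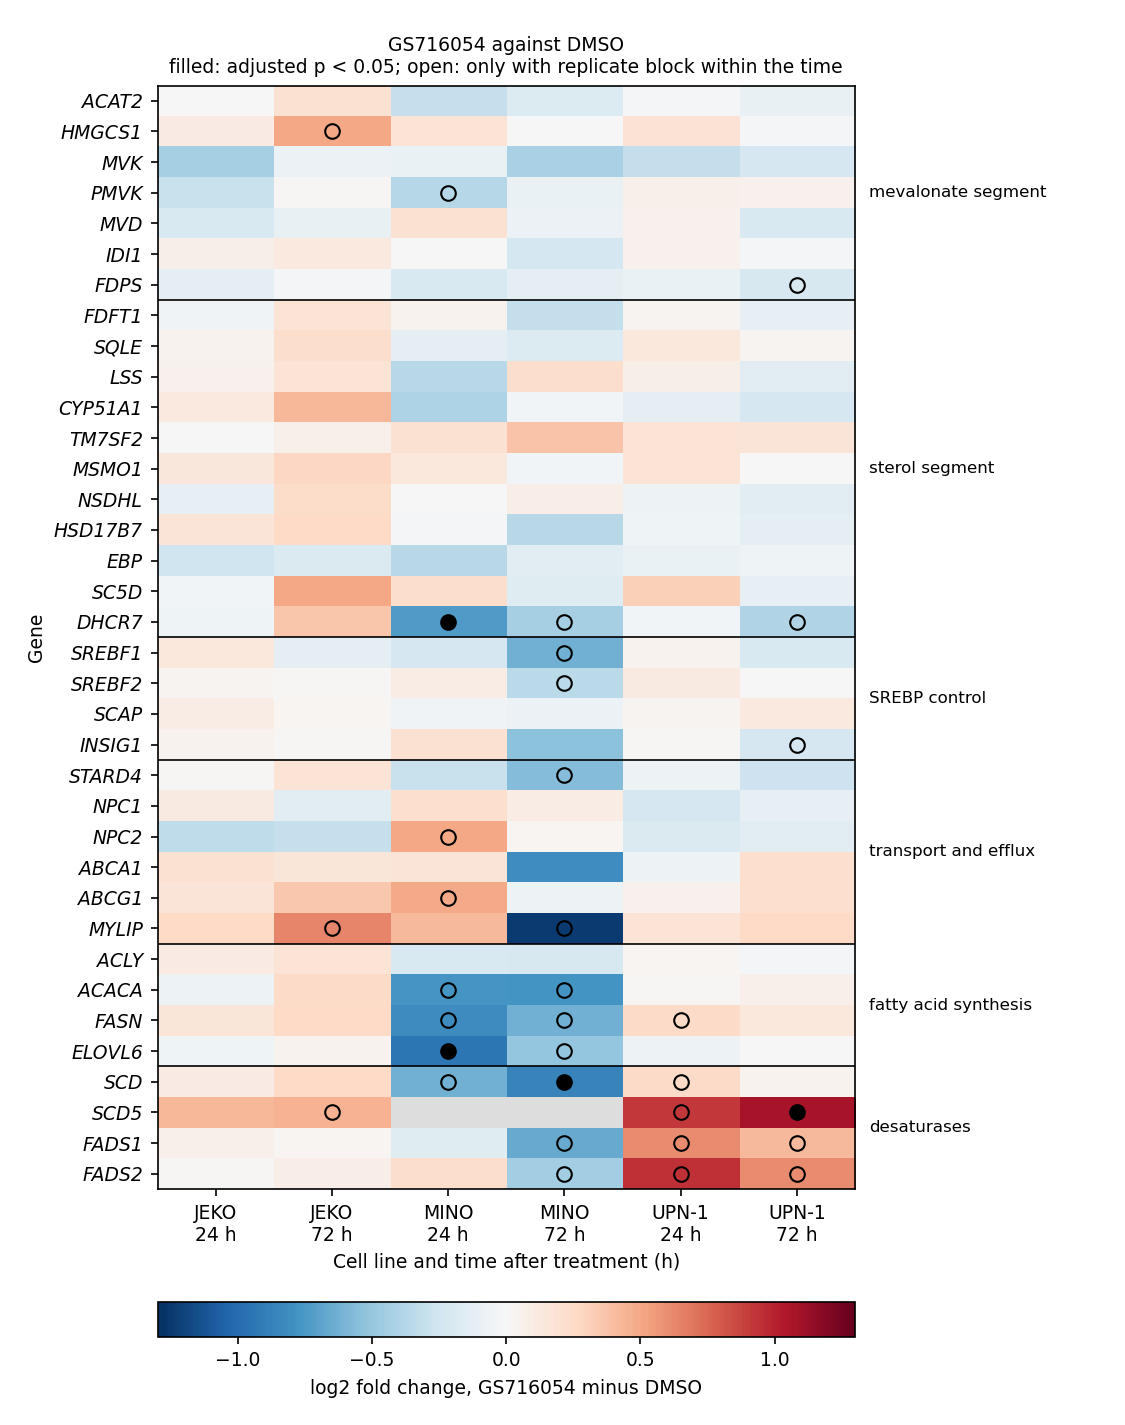
Log2 fold changes of GS716054 against DMSO for the 36 genes (rows, by role) in each line and time (columns). Filled circles mark edgeR adjusted p under 0.05. Open circles mark genes past that threshold only with the replicate block within the time, and were not drawn for JEKO at 24 h. Grey cells mark SCD5 in MINO, not tested. Filled circles stand at ELOVL6 and DHCR7 in MINO at 24 h, SCD in MINO at 72 h and SCD5 in UPN-1 at 72 h; open circles stand in all 6 roles.

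Whether the response differed among the lines was tested directly over all 36 libraries. Without a block, edgeR called 0 of 36 members at 24 h (7 at an unadjusted p under 0.05, and 1 by DESeq2, ELOVL6) where 0.106% of all genes were called. At 72 h it called 0 (10 at an unadjusted p under 0.05, and 1 by DESeq2, FADS1) where 1.01% of all genes were called. Of all 17980 genes, 1326 at 24 h and 2007 at 72 h had an unadjusted p under 0.05 in edgeR. With the block within each time, 8 members were called at 24 h, where 5.74% of all genes were called: SCD, NPC2, FADS2, FADS1, FASN, ELOVL6, DHCR7 and ACACA; JEKO did not meet the pairing check at that time. At 72 h 10 were, where 9.78% of all genes were called. They were MYLIP, SCD, HMGCS1, FADS2, FADS1, STARD4, ABCA1, FASN, DHCR7 and ACACA. SCD5 did not pass this test (edgeR adjusted p 0.0571). DESeq2 called 1.07% of all genes at 24 h and 2.52% at 72 h. The change of the treatment effect from 24 h to 72 h was called for 0 members in JEKO and UPN-1 by edgeR and by DESeq2, with 0 at an unadjusted p under 0.05 in each. In MINO it was called for 0 by both, with 2 at an unadjusted p under 0.05, and for MYLIP with the block (log2 difference -1.53, SE 0.246, edgeR adjusted p 0.0144). Without the block, 755 of all 15028 genes in MINO had an unadjusted p under 0.05 for this change in edgeR. Of all genes edgeR called 0.0133% in MINO and 0% in both other lines without the block, and 0.679% in MINO with it (0.492% lower). With the block it called 0 members in JEKO, where it called 0% of all genes, and 0 in UPN-1, where it called 0.0459%.

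Lists of lipid metabolism genes that are not members were tested in the same fits. Of 21 other sterol genes (18 to 20 tested), edgeR called 0 in each of the 6 treatment comparisons, with 0 to 4 at an unadjusted p under 0.05. DESeq2 called 2 in MINO at 24 h, both lower, and 0 elsewhere. From 577 of 15248 genes (UPN-1 at 24 h) to 3333 of 15028 (MINO at 72 h) had an unadjusted p under 0.05 in edgeR. Of 26 other genes of fatty acid and glycerolipid synthesis (24 tested), 3 were called, all lower in MINO at 72 h, where 5.56% of all genes were called by edgeR and 10.4% by DESeq2. MID1IP1, which promotes polymerisation of acetyl-CoA carboxylase, gave -0.91 (SE 0.126, edgeR adjusted p 0.00179), ACSL4 -0.57 (SE 0.108, adjusted p 0.00988) and ACSL5 -0.49 (SE 0.113, adjusted p 0.0251). MID1IP1 and ACSL4 kept the call in all 6 refits without 1 library, and ACSL5 in 4. In the 5 other treatment comparisons 0 to 5 genes of this list had an unadjusted p under 0.05 and edgeR called 0, while DESeq2 called 3 in MINO at 24 h (1 higher, 2 lower), 6 in MINO at 72 h (all lower) and 0 in the rest. Of 16 fatty acid oxidation genes, HADH, a mitochondrial dehydrogenase of the beta-oxidation spiral, was called lower in MINO at 72 h (-0.76, SE 0.160, edgeR adjusted p 0.0166) and 0 were called elsewhere, with 0 to 1 at an unadjusted p under 0.05; DESeq2 called 2, HADH and ETFDH, in MINO at 72 h and 0 elsewhere. The share of this list called by edgeR in MINO at 72 h is near that of all genes. The list medians in MINO at 72 h were -0.04, -0.13 and -0.08 in that order, against -0.21 for the members and -0.03 for all genes.

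In DMSO, 7 members in JEKO and 9 in UPN-1 changed between 24 h and 72 h. These comparisons share their DMSO libraries with the treatment comparisons. In JEKO 7 of 36 members were called, 2 higher and 5 lower, where 31.7% of all genes were called, 17.1% higher and 14.6% lower. DESeq2 called 8, and 35% of all genes. The members' median was 0.02, and that of all genes 0.05. FASN had 391, 401 and 517 CPM at 24 h and 198, 300 and 268 CPM at 72 h (1.71-fold lower, log2 fold change -0.77, SE 0.175, edgeR adjusted p 0.00597). ACLY went from 298, 291 and 301 to 135, 211 and 197 CPM (-0.71, SE 0.179, edgeR adjusted p 0.0099). ACACA went from 59.1, 75.5 and 66 to 39.5, 42.8 and 46.1 CPM (-0.64, SE 0.133, edgeR adjusted p 0.00369). These 3 genes of fatty acid synthesis did not overlap between the times and kept the call in all 6 refits without 1 library; ELOVL6, with -0.20, was not called.

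The 2 mevalonate genes called in JEKO were also lower at 72 h. ACAT2, which joins acetyl-CoA units, went from 101, 83 and 80.4 to 48, 60.3 and 49.4 CPM (-0.75, SE 0.216, edgeR adjusted p 0.0189, called in 3 of 6 refits). It overlaps TCP1 on the opposite strand over 17.2% of its exonic length. PMVK went from 94.9, 106 and 124 to 64.6, 68.7 and 66.5 CPM (-0.70, SE 0.215, edgeR adjusted p 0.0245, called in 2 of 6). Both genes were lower in every 72 h library. The SREBP genes went up in the same libraries. SREBF2 went from 486, 418 and 451 to 487, 842 and 690 CPM (0.58, SE 0.208, edgeR adjusted p 0.0477, called in 1 of 6 refits). Its lowest 72 h library lay at the level of the highest 24 h library. SREBF1 went from 45.3, 39.3 and 38.9 to 65.9, 53 and 61.8 CPM (0.55, SE 0.160, edgeR adjusted p 0.0196, called in 3 of 6). Leaving out 1 library at a time gave 4 to 7 calls, and 4 without DMSO 24 h replicate 2, DMSO 24 h replicate 3 or DMSO 72 h replicate 3.

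In UPN-1 the direction over time was upward. Of 36 members 9 were called, all higher, where 1.47% of all genes were called, 1.35% higher; the median log2 fold change was 0.36 (all genes 0.02). They came from 5 of the 6 roles, with none from fatty acid synthesis. MYLIP had 8.49, 11.8 and 12.1 CPM at 24 h and 38.7, 70.6 and 17.1 CPM at 72 h (3.92-fold higher, log2 fold change 1.97, SE 0.449, edgeR adjusted p 0.0444). ABCG1 went from 19.7, 22 and 16.2 to 58.8, 47.6 and 30.8 CPM (1.26, SE 0.239, edgeR adjusted p 0.0339). SREBF1 went from 15.6, 17.7 and 16.1 to 52, 40 and 27.2 CPM (1.28, SE 0.223, edgeR adjusted p 0.0271). In each of these the 72 h replicate 3 was the lowest of its group and still above every 24 h library. FADS2 went from 23.4, 25.3 and 33 to 93.6, 67.1 and 45.3 CPM (1.34, SE 0.223, edgeR adjusted p 0.024). FADS1 went from 37.3, 44.3 and 49.7 to 103, 87.1 and 60.4 CPM (0.94, SE 0.176, edgeR adjusted p 0.0339). INSIG1 went from 77, 72.1 and 78.1 to 178, 146 and 100 CPM (0.91, SE 0.205, edgeR adjusted p 0.0444).

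The 3 enzymes of cholesterol synthesis called in UPN-1 changed less. TM7SF2, a sterol C14 reductase, went from 13.5, 12.4 and 15.6 to 26, 27.5 and 18.4 CPM (0.80, SE 0.177, edgeR adjusted p 0.0433). LSS, the lanosterol synthase, went from 35.3, 38.4 and 42.6 to 71.2, 66.3 and 58 CPM (0.76, SE 0.138, edgeR adjusted p 0.0339). HMGCS1 went from 70.6, 72.3 and 74.8 to 118, 102 and 99.2 CPM (0.56, SE 0.131, edgeR adjusted p 0.0475). None of the 3 overlapped between the times. The calls rested on the set of libraries: without DMSO 72 h replicate 3, 18 members were called, without DMSO 72 h replicate 1, 1 was, and without DMSO 72 h replicate 2 or any DMSO 24 h library, 0 were. DESeq2 called 17 of the 36 members, all higher, and 6.73% of all genes. A fit of the 6 DMSO libraries alone called 0.

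In MINO edgeR called 0 of 35 members over time in DMSO, where 0.0932% of all genes were called. At an unadjusted p under 0.05 stood 14 of the 35 members and 3580 of all 15028 genes. DESeq2 called 4, SREBF2 and ABCA1 higher and ACAT2 and FDPS lower, and 6.53% of all genes. The largest values without overlap belonged to sterol export and trafficking, and replicate 2 carried much of their size. ABCA1 had 2, 2.91 and 2.29 CPM at 24 h and 4.38, 19.9 and 4.77 CPM at 72 h (SE 0.655 around a log2 fold change of 1.97, edgeR adjusted p 0.129). ABCG1 had 42.8, 48.5 and 34.9 against 52.3, 127 and 54 CPM (0.88, SE 0.393, edgeR adjusted p 0.2). NPC2 had 43.6, 40.1 and 42.6 against 50.4, 135 and 44.9 CPM (0.86, SE 0.360, edgeR adjusted p 0.178). All 6 transport and efflux genes had log2 fold changes above 0. All 4 fatty acid synthesis genes were below 0, from -0.52 to -0.33, and none of these 4 was called. Without DMSO 72 h replicate 2 these values shrank as well, to -0.28 for FASN, -0.22 for ACACA, -0.24 for ACLY and -0.12 for ELOVL6, as did those of ABCA1 (0.94), ABCG1 (0.35) and NPC2 (0.20). A test of whether the change over time differed among the lines was added after the data had been seen. It called 0 members with edgeR (9 at an unadjusted p under 0.05) and 3 with DESeq2 (ELOVL6, FADS1, FADS2). Of all 17980 genes edgeR called 0.167% and DESeq2 1.27%, and 2204 had an unadjusted p under 0.05 in edgeR. Of the lists of genes that are not members, edgeR called 8 of 20 other sterol genes (3 higher, 5 lower), 9 of 24 of fatty acid and glycerolipid synthesis (2 higher, 7 lower) and 5 of 16 of oxidation (3 higher, 2 lower) over time in JEKO, beside 31.7% of all genes. In MINO edgeR called 0 of these genes over time, with 5, 9 and 2 at an unadjusted p under 0.05 in the same order. Of all 15028 genes 3580 had such a p, and DESeq2 called 3, 5 and 1 of the listed genes. In UPN-1 edgeR called 0 of fatty acid and glycerolipid synthesis and 0 of oxidation, with 5 and 2 at an unadjusted p under 0.05. Of all 15248 genes 3888 had such a p, and DESeq2 called 1 and 2 of the listed genes. The count of other sterol genes over time in UPN-1 is not given here. Whether the rise in UPN-1 was particular to the members was not tested.

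**Figure D5:**
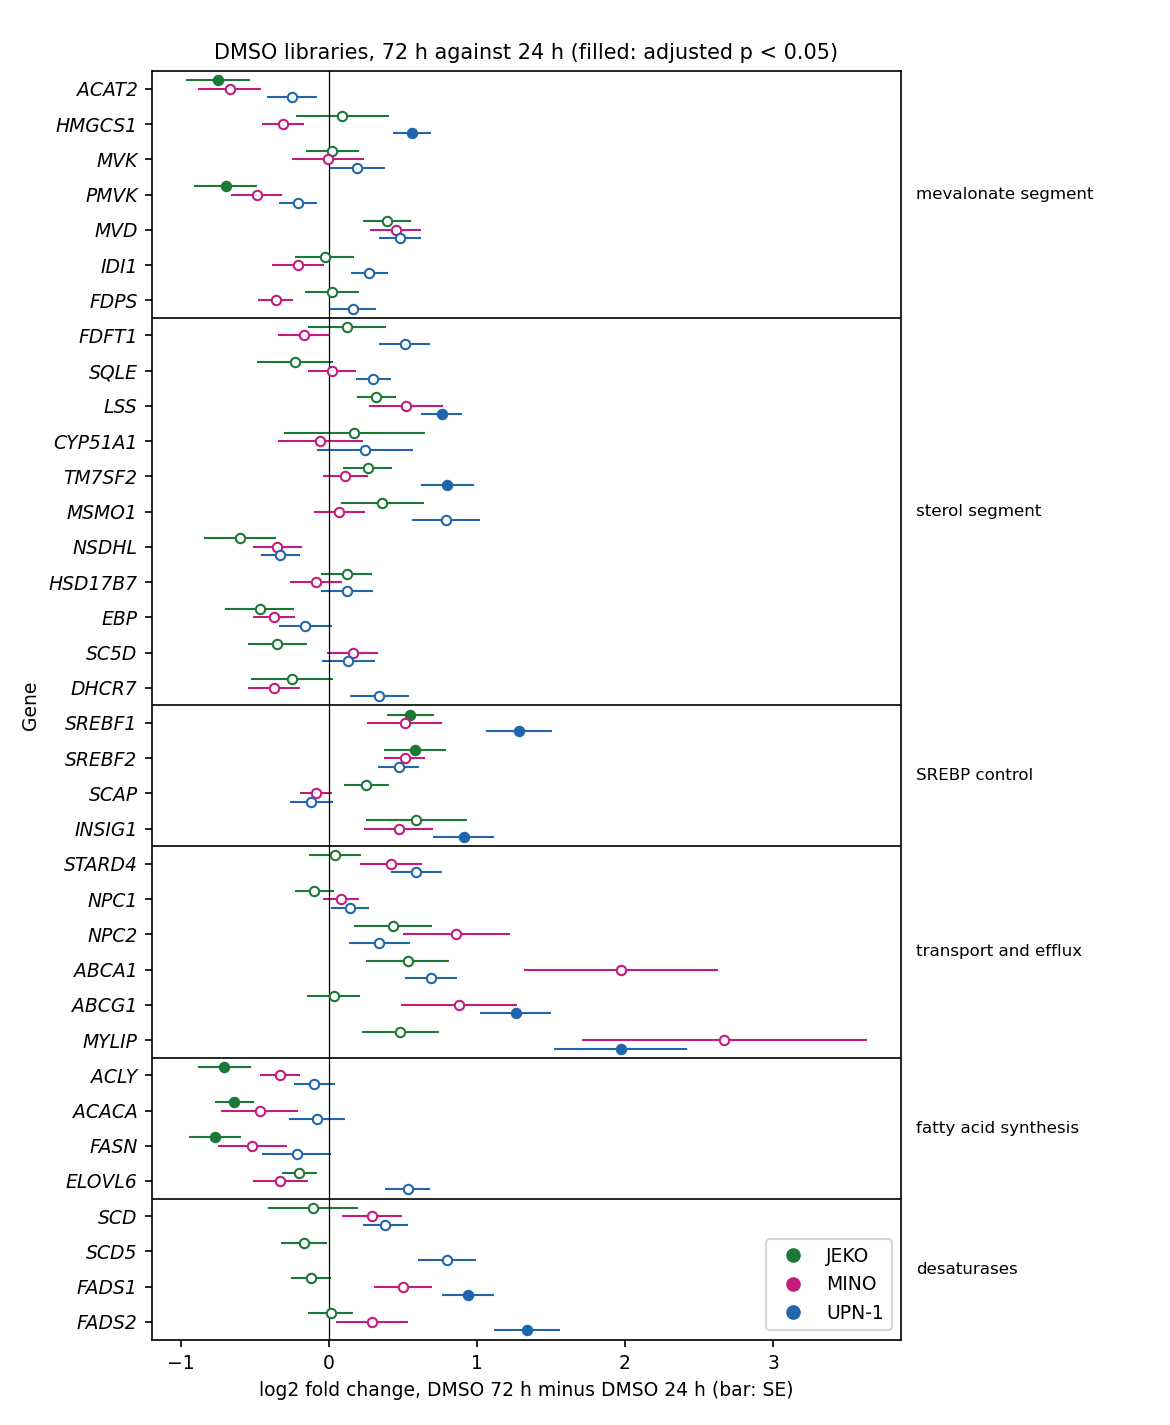
Log2 fold changes of DMSO at 72 h against 24 h for the 36 genes by role; points are estimates, bars the SE, filled points edgeR adjusted p under 0.05, and colours the lines. The fatty acid synthesis genes ACLY, ACACA and FASN lie left of 0 in all lines, with calls in JEKO, and in UPN-1 SREBF1, INSIG1, ABCG1 and MYLIP lie right of 0 with calls.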

How the data were processed

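The deposited files give 1 whole-number read count per Ensembl gene and library; per the submitters' processing notes, reads were aligned with HISAT2 2.2.1 to GRCh38 and counted with HTSeq 0.13.5. Not given in the sources used here are the annotation release, strand setting and library type. The 5 summary lines of each table (55.09% to 59.3% of its reads, 43.25% to 45.93% in no feature) were left out. Gene names, positions and exon lengths come from GENCODE v44 on GRCh38 (57532 of 58302 identifiers named, 770 unnamed). No library pair held identical values.

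Counts were tested in R 4.3.3 with edgeR 4.0.16 (quasi-likelihood, TMM scaling, filterByExpr at min.count 10, min.total.count 15), 1 fit per line of 12 libraries with 8 residual degrees of freedom, and 1 fit of all 36 libraries for comparisons between lines. Adjusted p are Benjamini-Hochberg values over all genes tested in a comparison, called under 0.05, and an SE is |log2 fold change| / sqrt(F). The p-values measure the spread between these libraries. CPM are on 1 TMM scale over the 36 libraries, except the floors for 0 counts. Fold changes within a line come from that line's fit. Both edgeR and DESeq2 1.42.0 were tested on simulated counts first. The members, lists and tests were chosen with earlier results of these data known. Named with full values were the members called in a comparison, by size of change, or, where there were none, up to 3 with the largest change and no overlap between groups; members called only with the block are named with the blocked value. Correlations, over genes, of the deviations from group means were taken between same-numbered DMSO and GS716054 libraries. They were 0.29 to 0.59 in JEKO at 72 h and 0.13 to 0.27 and 0.29 to 0.55 in MINO at 24 h and 72 h. In UPN-1 they were 0.11 to 0.24 and 0.48 to 0.58 at these times. In JEKO at 24 h they were 0.06 to 0.21, the lowest below the minimum of 0.1 set for pairing. The blocked result of that comparison is therefore not given. The blocked fits of JEKO and of all 36 libraries still held block terms for those libraries. DMSO libraries of 24 h and 72 h gave -0.07 to 0.17 and were not paired. Figures were drawn with matplotlib 3.10.9.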

Additional observations from a re-analysis of the deposited data

Results flagged for a closer look

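The effect of GS716054 at 72 h differed among the 3 lines for 10 members, where 9.78% of all genes were called. This was the edgeR fit of all 36 libraries with the replicate number as a block within each line and time. Without the block none of the 10 members passed the threshold, with edgeR adjusted p from 0.0594 (FADS1) to 0.751 (ABCA1).

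For ACACA the adjusted p of the difference among lines was 2.37e-05, with blocked log2 fold changes of JEKO 0.25, MINO -0.79, UPN-1 0.06. For MYLIP it was 3.17e-05 (JEKO 0.68, MINO -1.01, UPN-1 0.30), and in MINO the replicate 2 libraries stood apart for this gene. For SCD it was 0.000329 (JEKO 0.33, MINO -0.82, UPN-1 0.05). For FADS2 it was 0.00046 (JEKO 0.09, MINO -0.49, UPN-1 0.65), and for DHCR7 it was 0.00046 as well (JEKO 0.38, MINO -0.44, UPN-1 -0.40). FASN gave 0.000714 (JEKO 0.28, MINO -0.61, UPN-1 0.12) and FADS1 0.00121 (JEKO 0.04, MINO -0.68, UPN-1 0.44). HMGCS1 gave 0.0109 (JEKO 0.55, MINO 0.00, UPN-1 -0.03), STARD4 0.0131 (JEKO 0.17, MINO -0.58, UPN-1 -0.27) and ABCA1 0.032 (JEKO 0.22, MINO -0.83, UPN-1 0.23). In parentheses stand the blocked log2 fold changes of each line's own fit.

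The effect of GS716054 on MYLIP in MINO differed between 72 h and 24 h with the block within each time (edgeR adjusted p 0.0144) and not without it (adjusted p 0.969). All of these differences rest on 3 libraries a group.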

How the results depend on the processing

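Values here are the number of members called. Leaving out the low-count filter gave 11 for JEKO DMSO over time (7 in the report), 5 and 6 for GS716054 in MINO at 24 h and 72 h (2 and 1), 5 for MINO DMSO over time (0), 1 for the change of effect in MINO (0), 2 and 2 for GS716054 in UPN-1 at 24 h and 72 h (0 and 1), 17 for UPN-1 DMSO over time (9), 1 and 5 for the difference among lines at 24 h and 72 h (0 and 0), and 5 for the difference among lines over time in DMSO (0). Of all genes, that setting called 5583 of 31262 in JEKO and 1053, 1492, 1727 and 86 of 27323 in MINO, in the order given. In UPN-1 it called 36, 231 and 1845 of 28698, and among lines 266, 580 and 653 of 34826. DESeq2 gave 3 for MINO at 72 h, 4 for MINO DMSO over time, 1 for UPN-1 at 24 h, 17 for UPN-1 DMSO over time, 1 and 1 for the differences among lines at 24 h and 72 h, and 3 for that over time in DMSO. The replicate block over both times, whose numbers pair no DMSO libraries between times, gave 5 and 3 for MINO at 24 h and 72 h, 6 for MINO DMSO and 20 for UPN-1 DMSO over time, 2 and 2 for the differences among lines, and 3 for that over time in DMSO. With this block, 994, 1536 and 1819 of all 15028 genes were called in MINO, in the same order. For UPN-1 DMSO it was 2784 of 15248, and among lines 247, 528 and 290 of 17980. The replicate block within each time gave 3 for JEKO at 72 h, 8 and 11 for MINO, 5 and 6 for UPN-1, 1 for the change of effect in MINO, and 8 and 10 for the differences among lines at 24 h (5.74% of all genes) and 72 h. Fits of only the 6 libraries compared gave 9 and 0 for MINO at 24 h and 72 h, 1 and 0 for UPN-1, and 0 for UPN-1 DMSO over time. These fits called 2557 of 14083 and 101 of 14612 genes in MINO at 24 h and 72 h. In UPN-1 they called 30 of 13813 and 6 of 15026, and 1 of 14300 for DMSO over time. All 36 libraries gave 4 for MINO at 72 h, 2 for MINO DMSO and 4 for UPN-1 DMSO over time, beside 1413, 633 and 181 of 17980 genes. A minimum count of 50 gave 1 for the difference among lines at 72 h, beside 204 of 13819 genes. Leaving out replicate 2 of both MINO groups at 72 h gave 5, beside 14.4% of all genes. Leaving out 1 library at a time gave 4 to 7 for JEKO DMSO over time, 0 for MINO at 24 h, 0 to 5 for MINO at 72 h, 0 to 18 for UPN-1 DMSO over time, 0 to 1 for UPN-1 at 72 h, 0 to 1 and 0 to 2 for the differences among lines at 24 h and 72 h, and 0 to 2 for that over time in DMSO. Between lines in DMSO it gave 14 to 18. The UPN-1 fit with 18 members called 3084 of 15696 genes, and the MINO fit with 5 called 1518 of 15397. The cause of these shifts was not tested. No log2 fold change of a named member changed sign with a call. Members at a few CPM, such as CYP51A1 and SCD5 in UPN-1, are the ones that depth limits most.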
